A study of Mus musculus with 6 samples.

Results

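The 9 lymphocyte lineage genes described here are Jchain, Cd79a, Cd79b, Cd3e, Cd3g, Cd4, Cd8a, Il7r and Nkg7, taken by gene symbol from 17347 genes named on either of the array types used. Each had 1 feature on the oligonucleotide array and 1 on the cDNA array. All 9 had a value on all 3 oligonucleotide arrays, and 5 of 9 had one on all 3 cDNA arrays. The study injected 12 female C57BL/6 mice with poloxamer P-407, a surfactant block copolymer that raises blood lipids, at 0.5 g/kg into the abdomen every 3 days. A control group of 4 mice received saline. All were 7 weeks old in the protocol, ate chow with 4.4% fat, and gave livers at day 96. Livers of treated animals gave 3 RNA pools and those of control animals 1, so each treated value is a pool and the control is a single pooled sample. Every array carried a treated pool in Cy5 and the control pool in Cy3.

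Lymphocytes recognise antigen through receptors that signal by way of partner chains. Cd79a and Cd79b encode the signalling pair of the B cell receptor, and Jchain encodes the joining chain that links IgA and IgM into polymers in plasma cells. Cd3e and Cd3g encode subunits of the CD3 complex of the T cell receptor. Cd4 and Cd8a encode the co-receptors that mark helper and cytotoxic T cells, Il7r the receptor chain for the survival cytokine interleukin-7, and Nkg7 a granule membrane protein of NK and cytotoxic T cells. The liver holds resident NK and T cells, and Cd4 and Jchain are also known from some dendritic cells.

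The values are the log ratios made by the authors, read here as log2 of treated over control after subtraction of the median non-zero value of the array. The sample titles put treated against control and the labels give the dyes, and treated over control was taken from these. No source used here writes out how the ratio was formed, and none names the log base. With the ratio turned, every sign below would be turned, and the 6 genes called higher on the oligonucleotide array would be 0 higher and 6 lower. If the values were natural logs, the 1.91-fold increase of Jchain given below would be 2.53-fold. A value of exactly 0 was taken as not measured. Such values filled 5.57% to 5.66% of the oligonucleotide features and 25.4% to 39.5% of the cDNA features. The spread also differed between the array types, with a median absolute deviation of 0.20 to 0.22 on the oligonucleotide arrays and 0.58 to 0.90 on the cDNA arrays. Across 4702 genes, cDNA arrays 1 and 2 correlated at r = 0.707, while cDNA array 3 correlated with them at 0.346 and 0.294. The files hold ratios and no intensities, so no level and no signal over background can be given, and precision is limited by having 3 arrays of each type. Liver or lymphocyte identity could not be checked from levels for the same reason. A ratio from whole liver cannot tell more cells of a type from more RNA per cell.

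On the oligonucleotide array, 6 of the 9 genes were higher in the treated pools and 0 were lower. The 6 were Jchain, Il7r, Cd79b, Cd4, Cd8a and Cd3g, with mean log2 ratios from 0.16 to 0.93. Cd3e, Cd79a and Nkg7 did not pass the test. The count stands beside 22.0% of 16871 genes called higher and 21.4% called lower by the same test, limma's moderated test against 0 with a Benjamini-Hochberg adjusted p under 0.05. The median over the 9 genes was 0.25, against 0.00 over all genes. Among 862 olfactory, vomeronasal and trace amine receptor genes, whose usual place is the sensory epithelium, the test called 95 higher (11%, median ratio of these 0.22) and 216 lower (25.1%, median -0.26). Because every array shared the control pool and the dye order, the spread between control animals is left out and a gene's dye effect cannot be told apart from treatment.

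**Figure D1:**
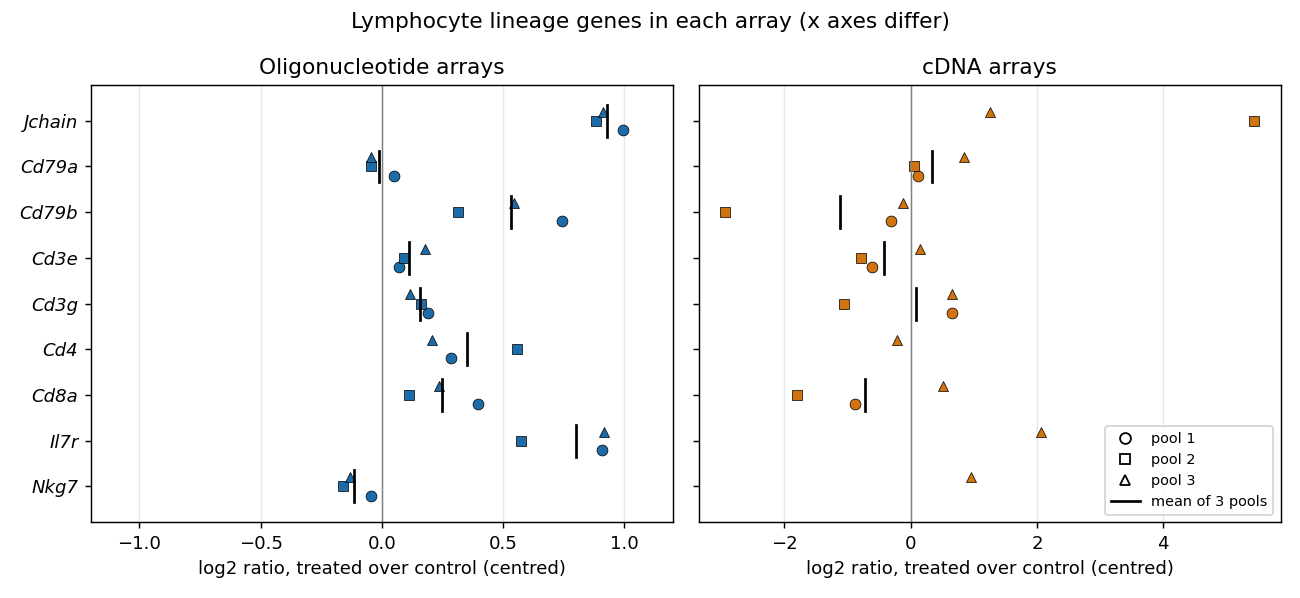
Centred log2 ratio of treated over control for each of the 9 genes in each array, with oligonucleotide arrays on the left and cDNA arrays on the right. Symbols are the 3 pools, and vertical bars are means of genes measured in all 3. The x axes differ. Jchain and Il7r lie farthest right on the left panel (means 0.93 and 0.80), and Jchain of pool 2 (5.44) and Cd79b of pool 2 (-2.94) lie farthest out on the right panel.

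Jchain had the largest mean of the 9 genes on the oligonucleotide array. Its log2 ratios there were 0.99, 0.88 and 0.91 in pools 1, 2 and 3, a mean of 0.93 ± 0.06 (SD, n = 3 pools) or 1.91-fold, with a limma adjusted p of 0.000244. All 3 pools lay close together, above 99.1% to 99.3% of the named features of their array, and its mean ranked 138 of 16871 genes from the top. Only 3 of the 862 sensory receptor genes had a mean above it.

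Of the signalling pair of the B cell receptor, Cd79b was called on the oligonucleotide array and Cd79a was not. Cd79b lay at 0.74, 0.31 and 0.55, a mean of 0.53 ± 0.21 (1.45-fold, limma adjusted p = 0.00455). Its pools were spread wider than those of most genes, since 4.69% of genes had a larger SD, but each pool was above 0. Cd79a lay at 0.05, -0.04 and -0.05, a mean of -0.01 ± 0.06 (limma adjusted p = 0.831), with pools on both sides of 0. The difference between these genes was not tested. Cd79b was above Cd79a in each pool here and below it in each pool on the cDNA arrays.

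Genes of the T cell receptor complex and its co-receptors had small ratios. Cd3e lay at 0.07, 0.09 and 0.18 (mean 0.11 ± 0.06, limma adjusted p = 0.083), which missed the threshold with all 3 pools above 0. Cd3g lay at 0.19, 0.16 and 0.12 (mean 0.16 ± 0.04, limma adjusted p = 0.0258). These values are among the smallest of the set, and 139 and 99 of the 862 sensory receptor genes had a mean above that of Cd3e and Cd3g. Among all 16871 genes, Cd3e ranked 4729 and Cd3g 3646 from the top.

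Both co-receptor genes were called higher on the oligonucleotide array. Cd4 lay at 0.28, 0.56 and 0.21 (mean 0.35 ± 0.18, 1.27-fold, limma adjusted p = 0.0124), with pool 2 the highest. Cd8a lay at 0.40, 0.11 and 0.23 (mean 0.25 ± 0.14, 1.19-fold, limma adjusted p = 0.022), with pool 2 the lowest. Of the sensory receptor genes, 15 lay above Cd4 and 40 above Cd8a. Among all 16871 genes, Cd4 ranked 1119 and Cd8a 2064 from the top. Thus pool 2 was highest for 1 co-receptor and lowest for the other.

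Il7r had the second largest ratio of the set. Its values were 0.91, 0.57 and 0.92, a mean of 0.80 ± 0.20 (1.74-fold, limma adjusted p = 0.00118), with pool 2 below the other pools. Nkg7 had the only mean below -0.1 of the 9 genes, at -0.04, -0.16 and -0.13 (mean -0.11 ± 0.06, limma adjusted p = 0.0855), and was not called. In the order of the means, Jchain and Il7r overlapped in their pools, as did Il7r and Cd79b, Cd79b and Cd4, and Cd4 and Cd8a.

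The calls depended in part on single pools, as did those of all genes. Without pool 1, 4 of the 9 genes were higher, and without pool 2 or without pool 3, 5. Over all genes, in either direction, 7318 of 16871 were called with all 3 pools and 4025 of 16871 without pool 1. The calls were 4935 of 16886 without pool 2 and 6244 of 16872 without pool 3. Jchain, Il7r, Cd79b and Cd4 were called with any 1 pool left out, with adjusted p values of 0.00108 to 0.0397. Cd8a was not called without pool 1 (adjusted p = 0.114) or without pool 3 (0.0561), and Cd3g was not called without pool 1 (0.157) or without pool 2 (0.0864). With each gene tested on its own spread alone, without limma's shared prior, 0 of the 9 genes passed. The adjusted p of Jchain was then 0.0669 and that of Il7r 0.0948. That fit called 40 of all 16871 genes, against 7318 with the prior, so few genes of any kind passed it. At an unadjusted p under 0.05, 8 of the 9 genes passed limma, 7 of them with means above 0 and Nkg7 with a mean below 0, beside 52.6% of all 16871 genes.

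**Figure D2:**
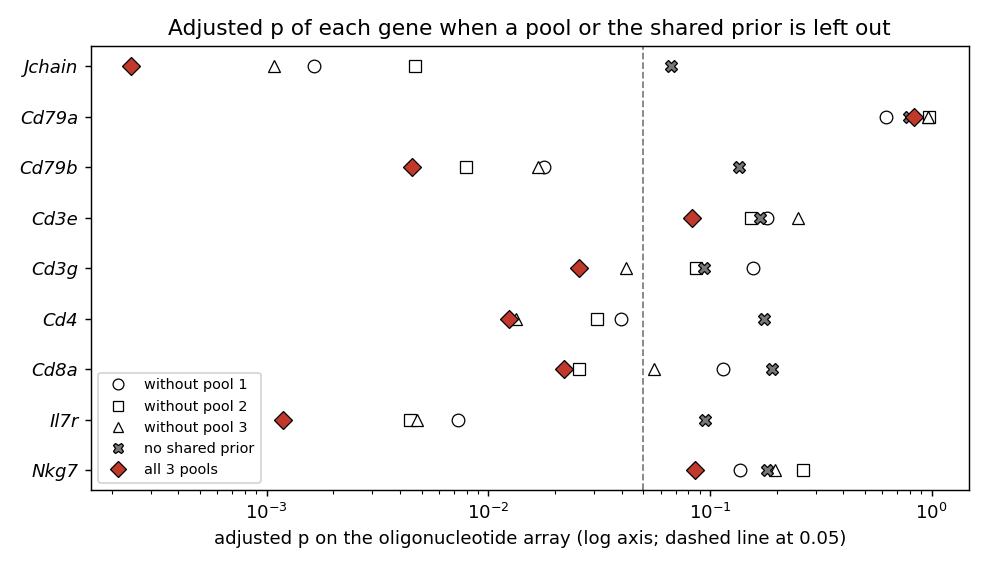
Adjusted p of each gene on the oligonucleotide array (log axis, dashed line at 0.05) with all 3 pools, without each pool in turn, and without limma's shared prior. Jchain, Il7r, Cd79b and Cd4 stay left of the line when any 1 pool is left out. All 9 genes lie right of it without the shared prior, where 40 of all 16871 genes were called.

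The promoter windows of Jchain and Il7r, which had the largest means of the 9 genes on the oligonucleotide array, and of Cd79a, which was not called there while its partner Cd79b was, are shown as the 250 bases before the RefSeq start (assembly GRCm38.p6). Capitals mark matches to the motifs listed below. Jchain is at chr5:88527898-88528147 on the minus strand, Il7r at chr15:9529877-9530126 on the minus strand and Cd79a at chr7:24897247-24897496 on the plus strand.
Jchain: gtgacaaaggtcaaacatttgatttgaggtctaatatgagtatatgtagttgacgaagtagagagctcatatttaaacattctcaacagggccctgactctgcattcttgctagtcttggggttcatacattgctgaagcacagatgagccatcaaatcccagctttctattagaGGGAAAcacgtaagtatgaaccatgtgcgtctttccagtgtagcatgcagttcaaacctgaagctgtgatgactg
Il7r: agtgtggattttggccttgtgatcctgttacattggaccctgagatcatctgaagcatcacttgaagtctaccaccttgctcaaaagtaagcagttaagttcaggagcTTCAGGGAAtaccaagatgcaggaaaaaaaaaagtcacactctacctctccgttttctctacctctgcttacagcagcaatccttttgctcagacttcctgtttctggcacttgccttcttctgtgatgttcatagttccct
Cd79a: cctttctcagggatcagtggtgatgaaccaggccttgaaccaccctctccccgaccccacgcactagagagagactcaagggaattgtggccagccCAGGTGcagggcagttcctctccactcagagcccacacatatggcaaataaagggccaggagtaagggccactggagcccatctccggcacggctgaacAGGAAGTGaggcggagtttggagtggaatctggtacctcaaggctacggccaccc

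Of the 9 genes, 7 had a window in the RefSeq promoter table, Cd79b and Cd4 being the others. For these 7, 14 motifs chosen after the values were seen were searched on both strands. The letters were ATTTGCAT (octamer), TATAAA, the E-boxes CAGCTG and CAGGTG, the RUNX motif TGTGGT, GAGGAAGT (PU.1), AGGAAGTG and CCGGAAGT (ETS), AGATAA (a letter match for factors of the GATA family), the element TTCNNNGAA of STAT factors, TGACGTCA (CRE) and GGGAAA (NFAT), together with a kappa-B decamer and an EBF decamer. GAGGAAGT and AGGAAGTG overlap in 7 of their letters. No motif was in more than 2 of the 7 windows, and 8 of the 14 were in none. TTCNNNGAA was in the windows of Il7r and Nkg7 and in 7.02% of 32851 windows in the table. AGGAAGTG was in those of Cd79a and Cd3e (3.14% of all windows), and CAGGTG in those of Cd79a and Cd3g (17.2%). GGGAAA, in 21.9% of all windows, was the only match in that of Jchain. TGTGGT was in that of Nkg7 (14% of all windows) and AGATAA in that of Cd3g (9.99%). A match describes letters only and is not a site, and a missing match to these fixed letters does not show that a site is absent.

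On the cDNA array, which read the same pools after direct labelling of 10 ug of RNA rather than amplification of 0.5 ug, none of the genes was called. The oligonucleotide features of 8 of the 9 genes carry a RefSeq mRNA record, and the cDNA features of 0 of 9 do, being annotated to other clone records. Of the 9, 5 could be tested on all 3 arrays, and limma called 0 of them. The same fit called 0 of 5011 genes (0%), with 1518 genes at an unadjusted p under 0.05 and 0 of the 5 among these. With every gene tested on its own spread, 1 of 5011 was called, none of the 5. The median of the 5 was -0.42, against 0.06 over all genes tested.

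Cd79b had the largest SD of the 5 tested genes. It lay at -0.31, -2.94 and -0.12 in pools 1, 2 and 3, a mean of -1.12 ± 1.58 (limma adjusted p = 0.311), so all 3 arrays were below 0 while all 3 oligonucleotide arrays were above it. The mean rested on pool 2, and without that pool it was -0.22. Cd79a lay at 0.11, 0.06 and 0.84 (mean 0.34 ± 0.44, limma adjusted p = 0.34), above 0 on each array, with pool 3 high.

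The T cell genes showed both signs. Cd3e lay at -0.62, -0.78 and 0.14 (mean -0.42 ± 0.49, limma adjusted p = 0.289) and Cd8a at -0.88, -1.80 and 0.51 (mean -0.72 ± 1.16, limma adjusted p = 0.37). Cd3g lay at 0.65, -1.06 and 0.65 (mean 0.08 ± 0.99, limma adjusted p = 0.904), and its mean turned to -0.20 without pool 1 or without pool 3. On pool 2 the 3 genes were at their lowest, and on pool 3 all 3 were above 0.

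The other genes had partial readings. Jchain was at 0 in the deposited values of pool 1 and read 5.44 in pool 2 and 1.25 in pool 3, so its sign was that of the oligonucleotide array in both. The mean over these arrays, 3.35, did not pass when genes with values on at least 2 arrays were tested (limma adjusted p = 0.252). Il7r (2.07), Nkg7 (0.95) and Cd4 (-0.22) each had a value in pool 3 alone, and no test was possible. Il7r had the sign of its oligonucleotide ratio in that pool, while Nkg7 and Cd4 had the opposite sign.

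Seen by array, the cDNA values of the set moved with the array more than the oligonucleotide values did. Over all features, too, the cDNA values were spread wider (median absolute deviation 0.58 to 0.90, against 0.20 to 0.22). On the oligonucleotide arrays 8, 7 and 7 of the 9 genes were above 0 in pools 1, 2 and 3. On the cDNA arrays the counts were 2 of 5, 2 of 6 and 7 of 9, and the medians -0.31, -0.92 and 0.65. The genes behind these counts differ, since Jchain has no value in pool 1 and Il7r, Nkg7 and Cd4 have one in pool 3 alone. Over the 5 genes on all 3 cDNA arrays, the means were -0.21, -1.30 and 0.40 in pools 1, 2 and 3. The array of pool 3 is the one that correlated least with the others, and its part in these counts was not tested. Over the genes with a value on both arrays of a pool, the signs matched in 57.4%, 56% and 58% of 5271, 5088 and 6055 genes in pools 1, 2 and 3. For the set, they matched in 2 of 5, 1 of 6 and 5 of 9.

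Whether the array types differed was tested for the 5 genes measured on all 6 arrays, and limma called none of them. The same fit called 11.4% of 4702 genes, and 0 without pool 1, without pool 2 or with the pool as a block, which also left the 5 genes uncalled. Of the 5 genes, 0 had an unadjusted p under 0.05. For Cd79b the oligonucleotide mean exceeded the cDNA mean by 1.66 (95% interval -0.26 to 3.57, adjusted p = 0.187), the 58th largest such excess of the 4702 genes. The intervals here and below come from limma's fit without the block, which leaves out the pairing by pool. It also takes 1 variance for both types, while the SD of Cd79b was 0.21 on the oligonucleotide and 1.58 on the cDNA arrays. With the pool as a block, limma's adjusted p for Cd79b was 0.185. Without pool 2 the excess was 0.86. The interval includes 0 and also excesses of over 3 log2 units, so these arrays do not show that the 2 types read Cd79b alike.

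The excess was 0.97 for Cd8a (-0.45 to 2.39, adjusted p = 0.273) and 0.53 for Cd3e (-0.10 to 1.17, adjusted p = 0.196). It was 0.08 for Cd3g (-1.13 to 1.28, adjusted p = 0.916) and -0.35 for Cd79a (-0.92 to 0.22, adjusted p = 0.316). Without pool 3, the excess of Cd3e was 0.78 and passed (adjusted p = 0.0326), in a fit that called 1077 of 4837 genes. With the arrays of a pool averaged, limma called 5.10% of the 4702 genes (0 genes without pool 1 or pool 2) and 0 of the 5, of which 0 had an unadjusted p under 0.05. The averages ranged from -0.29 for Cd79b to 0.16 for Cd79a.

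**Figure D3:**
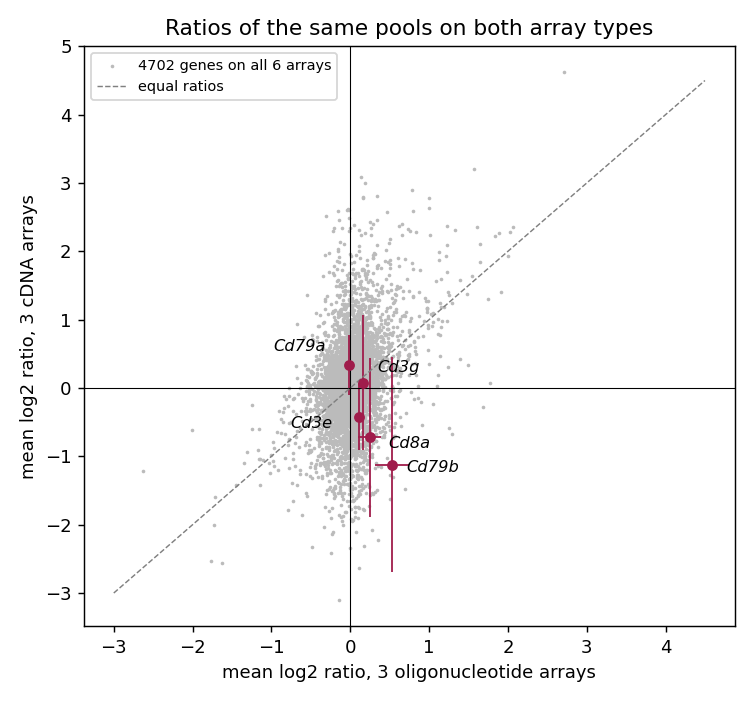
Mean log2 ratio over 3 oligonucleotide arrays (x) and over 3 cDNA arrays (y) for the 4702 genes measured on all 6 arrays (grey), with the 5 lineage genes in red and bars of 1 SD over pools. Cd79b (0.53 and -1.12) and Cd8a (0.25 and -0.72) lie right of 0 and below it, and their vertical bars are several times as long as the horizontal ones.

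Other genes of the lineages gave a mixed picture on the oligonucleotide array. The list counts here and below stand beside 22.0% of 16871 genes called higher and 21.4% called lower. In either direction, the test called 4025 of 16871 genes without pool 1. It called 4935 of 16886 without pool 2 and 6244 of 16872 without pool 3. Of 29 tested genes of the B and plasma cell list, which includes the epithelial gene Pigr, 10 were higher and 3 lower, with a median of 0.01. Blnk, an adaptor downstream of the B cell receptor, was 3.88-fold higher (1.95 ± 0.12, limma adjusted p = 0.0000784). Which liver cells carried this increase was not tested. Ms4a1, which encodes CD20, lay at 0.38 ± 0.02 (adjusted p = 0.0015), and Spib, a transcription factor of B and plasmacytoid dendritic cells, at 0.54 ± 0.12 (adjusted p = 0.00151). Pigr, the epithelial receptor that carries J chain-linked antibody, was lower (-0.39 ± 0.07, adjusted p = 0.00214). The other genes of the list called lower were the B cell surface genes Cd37 (-0.20 ± 0.05, adjusted p = 0.013) and Cd72 (-0.17 ± 0.03, adjusted p = 0.0198), the latter named after its value was seen. Without pool 1, 5 of the 29 were higher and 1 lower.

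Of 29 tested T cell genes, 11 were higher and 4 lower (22.0% and 21.4% over all genes), with a median of 0.07. Lcp2, an adaptor of T cell and myeloid signalling, rose by 0.48 ± 0.14 (adjusted p = 0.00247) and Cd247, the zeta chain of the receptor complex, by 0.45 ± 0.08 (adjusted p = 0.00159). Lat, a membrane adaptor, rose by 0.26 ± 0.09 (adjusted p = 0.00953), while Cd96 was lower (-0.29 ± 0.03, adjusted p = 0.00359). Trat1 (-0.21 ± 0.04, adjusted p = 0.0096), Zap70 (-0.27 ± 0.13, adjusted p = 0.0142), a kinase of T cell receptor signalling, and Cd69 (-0.18 ± 0.05, adjusted p = 0.0198), an activation marker, were lower too, and were named after their values were seen. Cd3d lies between Cd3g and Cd3e in the RefSeq gene order and was picked after its value was seen. It rose by 0.25 ± 0.15 (adjusted p = 0.0244), while its mean on the cDNA arrays was -0.15, opposite in sign. Without pool 1, 3 T cell genes were higher and 1 lower, and without pool 2, 5 and 2.

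Among 22 NK and cytotoxic genes, 6 were higher and 1 lower (22.0% and 21.4% over all genes), with a median of 0.07. Cst7, a cystatin of cytotoxic granules and phagocytes, rose by 0.64 ± 0.18 (adjusted p = 0.00176), Serpinb9, an inhibitor of granzyme B, by 0.35 ± 0.05 (0.00245), the chemokine gene Xcl1 by 0.31 ± 0.10 (0.00568) and the granzyme gene Gzmc by 0.24 ± 0.02 (0.00604). The lower gene, named after its value was seen, was Ncr1, an activating receptor of NK cells (-0.25 ± 0.15, adjusted p = 0.0226). Without pool 1, 4 were higher and 0 lower, and 5 and 1 without pool 2 or pool 3.

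Of 15 cytokine receptor and ligand genes, 6 were higher and 0 lower (22.0% and 21.4% over all genes), with a median of 0.07. Crlf2 pairs with the Il7r chain to form the receptor for the cytokine TSLP. It rose by 1.01 ± 0.16 (adjusted p = 0.000508), and Tslp itself by 0.48 ± 0.09 (0.00142). Jak3, a kinase of the interleukin-7 receptor, rose by 0.23 ± 0.04 (0.00746) and Stat5a, a transcription factor downstream of it, by 0.32 ± 0.16 (0.0116). Il7 lay at -0.10 ± 0.13 (0.211). Il7 was picked after its value was seen. Without pool 1, 3 of the 15 were higher, and without pool 3, 4. Of 9 progenitor genes, Rag2 was higher (0.20 ± 0.03, adjusted p = 0.0115) and Rag1 lower (-0.56 ± 0.09, adjusted p = 0.000985). Both encode parts of the recombinase that assembles antigen receptor genes. Without pool 1 Rag2 was not called. Without pool 3, 2 of these genes were higher.

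On the cDNA array limma called 0 genes of any of these lists. The medians there were -0.41 for 12 B and plasma cell genes, -0.66 for 9 T cell genes and 0.22 for 9 NK and cytotoxic genes. In the fit of the difference between array types, Vpreb3 was higher on the oligonucleotide array by 1.08 (adjusted p = 0.0386), Cd7 by 1.14 (0.0212), Il2ra by 0.96 (0.03) and Klrd1 by 1.10 (0.0472), and Cd37 was lower by -0.97 (0.0212). None of these was called with the pool as a block, or without pool 1 or pool 2, where the fit called 0 of all genes. On the cDNA array Ms4a1 and Spib lay at -0.64 ± 0.47 and -1.31 ± 0.96, below 0 on each array and opposite in sign to their oligonucleotide means, and neither difference between types passed (adjusted p = 0.0529 and 0.0624). Serpinb9 was higher on the average of both array types (0.77 ± 0.18, adjusted p = 0.0435), but not without pool 1 or pool 2, where that fit called 0 genes. The oligonucleotide ratio of Cd37 was -0.20 and its cDNA ratio 0.77, so the sign differed between the types.

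**Figure D4:**
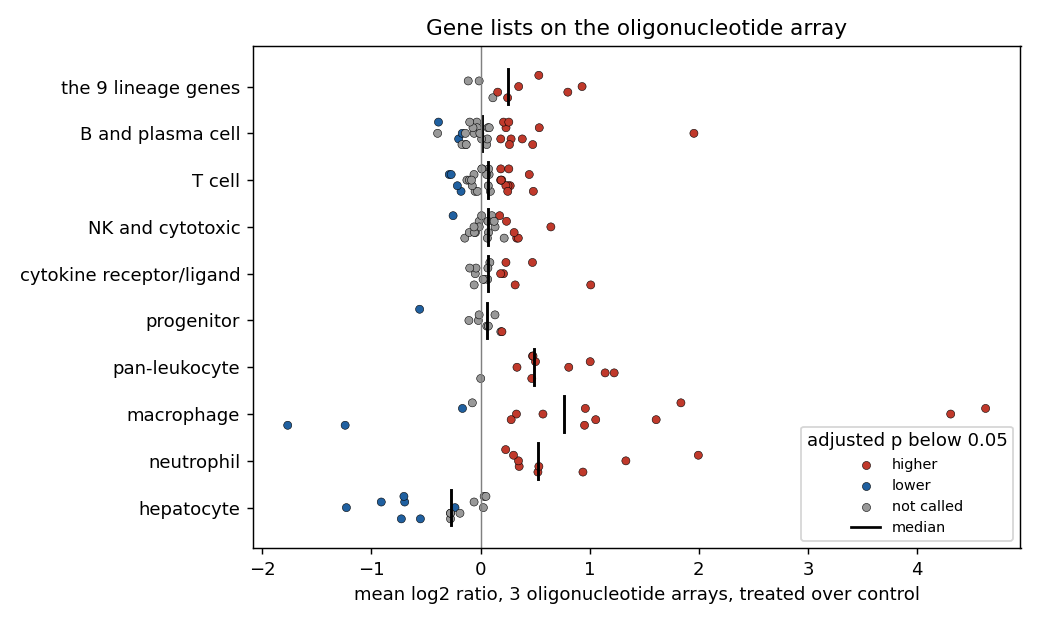
Mean log2 ratio on the 3 oligonucleotide arrays of every tested gene of 10 lists (rows), coloured by whether limma's adjusted p was below 0.05 in either direction, with the list median as a black bar. The medians of the lymphocyte lists lie near 0 (0.01 to 0.07), that of the 9 lineage genes at 0.25, and those of pan-leukocyte, neutrophil and macrophage genes at 0.49, 0.53 and 0.76.

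Markers of other cells moved in the same oligonucleotide arrays, where 22.0% of all genes were called higher and 21.4% lower. Of 10 pan-leukocyte genes, 9 were higher, with a median of 0.49, and list means of 0.57 to 0.78 over the pools. Among them Laptm5 lay at 1.22 ± 0.24, Cd48 at 1.14 ± 0.10 and Cd52 at 0.81 ± 0.15. Of 14 macrophage markers, 10 were higher and 3 lower (median 0.76, list means 0.83 to 1.06), and of 9 neutrophil markers all 9 were higher (median 0.53, list means 0.56 to 0.90), or 6 of 9 without pool 2. Of 13 dendritic cell markers, 6 were higher and 3 lower (median 0.12, list means 0.22 to 0.24), and without pool 1, 5 and 0. Of 15 hepatocyte markers, 0 were higher and 7 lower (median -0.28, list means -0.42 to -0.38). The part of these cells in the ratios of the 9 lineage genes, or of the other lymphocyte lists, was not tested. On the cDNA array, the 7 tested pan-leukocyte genes had means from 0.38 to 2.64, all above 0, while 3 of the 5 tested lineage genes had means below 0. None of these 7 or 5 genes was called there, and 54.5% of all 5011 genes tested had means above 0. The difference between the 2 sets was not tested.

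The genes most like each lineage gene were sought by the Euclidean distance of the centred ratios. Over the 3 oligonucleotide arrays, the nearest to Jchain were Tlr4 (distance 0.06, mean ratio 0.92) and Wfdc18 (0.07, 0.97), and the nearest to Il7r were Hvcn1 (0.09, 0.81) and Trim13 (0.10, 0.80). Fam98b (0.02) and Dusp5 (0.05) were nearest to Cd4, and Sec14l1 (0.01) and Wdr70 (0.01) to Nkg7. Over 6 arrays, Pxk (0.15) and Prorp (0.18) were nearest to Cd79a, Efs (0.84) and Mmp16 (1.03) to Cd79b, Fam13b (0.20) and Pin4 (0.20) to Cd3e, Pola1 (0.39) and Parp6 (0.47) to Cd3g, and Myt1l (0.43) and Itga2b (0.51) to Cd8a. The nearest gene to Cd79b lay farther off than the nearest gene to any of the other 4 genes compared over 6 arrays. With 3 or 6 values, a small distance describes these arrays only.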

How the data were processed

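Liver RNA of 3 treated pools was read on 3 oligonucleotide and 3 cDNA 2-colour arrays against 1 control pool. Per the labels' protocols, 0.5 ug of RNA was amplified and labelled for the former and 10 ug labelled directly for the latter. The deposited values are log ratios made by the authors, read here as log2. Their log base, the formula of the ratio, centring, background correction and filters were named in no source used here, and treated over control was taken from titles and dyes. A log10 scale was set aside because values reached 6.34, above the 4.82 that a 16-bit scan allows on that scale. Natural logs, with a limit of 11.1, were not set aside.

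Features with 1 annotated gene entered, 18658 of 22575 on the oligonucleotide and 7410 of 13482 on the cDNA array. Of their gene IDs, 18445 and 7332 were found in RefSeq. Features of a gene were averaged. Genes with values on all 3 arrays of a type were tested with limma 3.58.1 in R 4.3.3 (lmFit, eBayes, Benjamini-Hochberg over all genes tested). The code was also run on simulated ratios with independent errors. These held no shared control pool and no dye effect, so they could not check the calls against either. For the difference between types, 6 arrays were fitted without a block. An exact sign-flip test of 3 pools cannot go below p = 0.25. The pools count as replicates, but no source used here says which mice went into which pool, so the p-values measure the spread between pools only.

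Pool numbers pair the arrays, since per the series' design text each pooled RNA was split between both types. The correlation of deviations from the type means was 0.0619, 0.073 and 0.0745 for pools 1, 2 and 3, and below 0 for every other pairing. A gene's deviations sum to 0 within a type, so the values below 0 follow largely from this and are no separate evidence of pairing. Alternatives covered centring, scaling, zeros, features, the prior, left-out pools and the block.

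All 9 members were named. From each other list, up to 4 genes with the smallest p among those past the threshold on the oligonucleotide array were named, and genes of the B, T and NK lists past it on the cDNA array or in the difference between types. Genes most like a member were the 2 nearest by Euclidean distance. Genes named outside this rule were picked after their values were seen, as the text says. Members and lists were chosen with earlier results of these data known. Lists of endothelial and erythroid markers gave 0 higher and 3 lower of 9, and 3 higher and 1 lower of 5. Plots were drawn in matplotlib 3.10.9 under Python 3.11.15, with tables read by pandas 2.3.3.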

Additional observations from a re-analysis of the deposited data

How the results depend on the processing

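Among genes on all 6 arrays, the oligonucleotide count of 6 higher genes was 3 of 5. No call of these 5 changed, and the other members were absent from that set. The count was 0 without the shared prior, and ran from 4 to 5 with a pool left out. It stayed at 6 under no centring, scaling, kept zeros, the feature rule and a trended prior. No lineage gene was called on the cDNA array or in the pool averages under any alternative run. In the difference between types, leaving out pools called 0 to 1 (Cd3e without pool 3), and the replicate block 0.

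Over all genes, the oligonucleotide calls were 40 without the prior, 2200 on the 6-array genes and 4025 to 6244 with a pool left out. The cDNA calls were 1 without the prior. Calls in the pool averages (240) were 546 with scaled arrays, 0 with kept zeros, a trended prior or no prior, and 0 to 373 with a pool left out. Calls in the difference (537) were 831 with scaled arrays, 290 with kept zeros, 0 with a trended prior, 0 with the replicate block, and 0 to 1077 with a pool left out. The pairing by pool through that block changed no call of a lineage gene.

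Means that turned sign were all uncalled; ranges are over leaving out each pool. On the oligonucleotide array Cd79a ran from -0.045 (pool 1 out) to 0.0035 (pool 3 out), with 0.0032 without pool 2. On the cDNA array Cd3g ran from -0.205 (pool 1 or 3 out) to 0.65 (pool 2 out). In the pool averages Cd79b ran from -0.55 to 0.21 and Cd8a from -0.54 to 0.065, both highest without pool 2, and Cd3g from -0.033 (pool 1 out) to 0.40, with -0.014 without pool 3. The difference of Cd3g ran from -0.50 (pool 2 out) to 0.38. The cause was not tested. Signal over background is unknown.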
